A study of Mus musculus with 19 samples.

Results

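Interferon-stimulated genes are the genes that a cell switches on when it meets interferon, and they are described here across fibroblasts grown out of 7 organs of adult mice. A list of 44 such genes was set by name, and a probe was found for 42 of them among 20660 genes with a named probe. All 42 passed the filter on dim probes, and no probe was matched to Mx1 or Mx2, so those genes were not analysed here. The cultures came from heart, tail, gonad, kidney, liver, lung and skin of mice aged 8 to 10 weeks. Every organ was cut up, digested with trypsin or collagenase and kept in serum-containing medium for 5 days, and the labels name no interferon or other agent in any group. There were 3 samples each of heart, tail, gonad, liver and lung and 2 each of kidney and skin, and 18 of the 19 samples entered the tests, since no scanner file of lung 2 was used here. The labels give no strain, no sex and no statement that replicates are separate animals, and p-values therefore refer to the spread among these samples, which may be technical. Precision is limited by the number of arrays.

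Interferons are secreted proteins that cells release on sensing viral nucleic acid, and they bind receptors on the same or neighbouring cells. Receptor-bound kinases then activate transcription factors, among them STAT2, which joins IRF9 in a complex that binds the interferon-stimulated response element (ISRE) in promoters. The products degrade viral RNA, block its translation, tag proteins with the ubiquitin-like ISG15, sense further nucleic acid and, through USP18, restrain the receptor. Fibroblasts are known both to make interferon beta and to respond to it.

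Promoter sequence was available for 33 of the 44 genes (RefSeq, mouse build GRCm38.p6, 250 bases before to 50 after the transcription start). The ISRE was searched as GAAA, any 2 bases and GAAA again, which reads TTTC, any 2 bases and TTTC on the other strand. It was present in a window of 17 of the 33 genes (51.5%), against 3.99% of 27025 genes with such a window. The interferon gamma-activated site, searched as TTCNNNGAA, which reads the same on both strands, was present in 7 of the 33 (21.2%), against 9.55% of all genes. Overlap between both motifs occurred in 1 member, Bst2. A match describes the letters in the window and is not evidence of binding. The upstream 250 bases are shown for the 3 members with a promoter whose heart signal differed most from that of the other organs (Oas1a, Ifit3 and Isg15) and for the one that differed least (Oas1g), with ISRE letters in capitals, 5′ to 3′ in the direction of transcription.
Oas1a, chr5:120907526-120907775, minus strand: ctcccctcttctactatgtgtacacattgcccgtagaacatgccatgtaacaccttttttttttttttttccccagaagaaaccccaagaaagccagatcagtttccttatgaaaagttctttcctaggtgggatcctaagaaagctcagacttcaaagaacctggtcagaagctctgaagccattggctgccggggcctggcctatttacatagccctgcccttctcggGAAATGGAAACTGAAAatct
Ifit3, chr19:34583279-34583528, plus strand: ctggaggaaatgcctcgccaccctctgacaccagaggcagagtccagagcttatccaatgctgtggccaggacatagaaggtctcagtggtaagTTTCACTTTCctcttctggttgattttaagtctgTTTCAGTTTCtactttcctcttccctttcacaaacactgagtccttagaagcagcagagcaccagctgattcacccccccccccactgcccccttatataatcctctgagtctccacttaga
Isg15, chr4:156200819-156201068, minus strand: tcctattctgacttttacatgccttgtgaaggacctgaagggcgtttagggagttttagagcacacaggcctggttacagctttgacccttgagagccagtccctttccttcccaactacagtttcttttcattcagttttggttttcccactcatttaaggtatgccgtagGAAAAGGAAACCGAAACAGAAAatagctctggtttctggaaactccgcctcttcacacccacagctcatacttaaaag
Oas1g, chr5:120887614-120887863, minus strand: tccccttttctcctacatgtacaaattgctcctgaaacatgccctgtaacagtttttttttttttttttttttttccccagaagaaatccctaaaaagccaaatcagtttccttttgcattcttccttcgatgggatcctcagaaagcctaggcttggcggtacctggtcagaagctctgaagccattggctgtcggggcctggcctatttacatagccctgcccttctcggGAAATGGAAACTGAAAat

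In Isg15 the capitals are 3 overlapping matches, the most upstream from -78 to -69 and the most downstream from -66 to -57 relative to the transcription start. Ifit3 carried 2 separate matches in the other orientation, at -156 to -147 and -122 to -113. In Oas1a and Oas1g the capitals are 2 overlapping matches each, and the first of them starts at -20 in Oas1a and at -18 in Oas1g. For 5 further members, chosen after their values were seen to stand for different roles, 30 bases around 1 match are shown, again with the ISRE in capitals.
Bst2, chr8:71537583-71537612, minus strand: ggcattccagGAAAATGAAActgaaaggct
Gbp3, chr3:142559989-142560018, plus strand: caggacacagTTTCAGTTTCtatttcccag
Igtp, chr11:58199512-58199541, plus strand: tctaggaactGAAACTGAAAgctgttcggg
Rsad2, chr12:26456553-26456582, minus strand: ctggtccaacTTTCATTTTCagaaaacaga
Stat2, chr10:128270266-128270295, plus strand: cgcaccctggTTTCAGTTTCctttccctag
In all, 9 members had 2 or more ISRE matches: Bst2, Gbp3, Ifit1, Ifit3, Irgm1, Isg15, Oas1a, Oas1g and Trim30a. The matches overlapped in Bst2, Gbp3, Irgm1, Isg15, Oas1a and Oas1g and were separate within the window of Ifit1 and of Ifit3. Those of Trim30a lay in windows of different transcription starts.

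The values below are relative signals, the background-subtracted intensity of a gene's brightest probe divided by the 75th percentile of its array, so that 1 is the level of that percentile. Levels are compared between arrays for a gene and never between genes. Differences are on the log2 scale with standard errors (SE) from limma, a linear model fitted over 20205 genes, and adjusted p-values are Benjamini-Hochberg over all of them. A gene was called where the adjusted p was under 0.05 and the difference at least 1 on the log2 scale. On 5 arrays (heart 1, tail 2, gonad 3, kidney 1 and kidney 2) the negative control spots read above the range the scanner software accepts. Those arrays had 84.9% to 96.6% of spots well above background, against 51.2% to 77.2% on the 13 others, and the interquartile range of log2 signal over all genes was 2.31 to 4.72, against 5.37 to 8.18. Both kidney arrays are among them, so kidney and high background cannot be told apart, and counts of the 42 genes, and of the other gene lists in heart, are given below with and without the 5 arrays. The arrays lie on 3 slides, with 1 heart array on each.

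Heart fibroblasts had the highest signal of most interferon-stimulated genes. Of the 42 genes, 37 were higher in heart than in the mean of the other 6 organs and 0 were lower, against 1.37% of all genes called higher and 2.32% called lower. The median log2 difference of the members was 3.17, against -0.11 over all genes. Without the 5 high-background arrays 40 were higher and 1 (Ifi27) was lower, against 3.41% and 4.98% of all genes. Heart held the highest organ mean for 37 genes, kidney for 3 and tail for 2, and tail was second for 30. In bulk RNA a larger share of responding cells and more RNA per cell cannot be told apart.

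**Figure D1:**
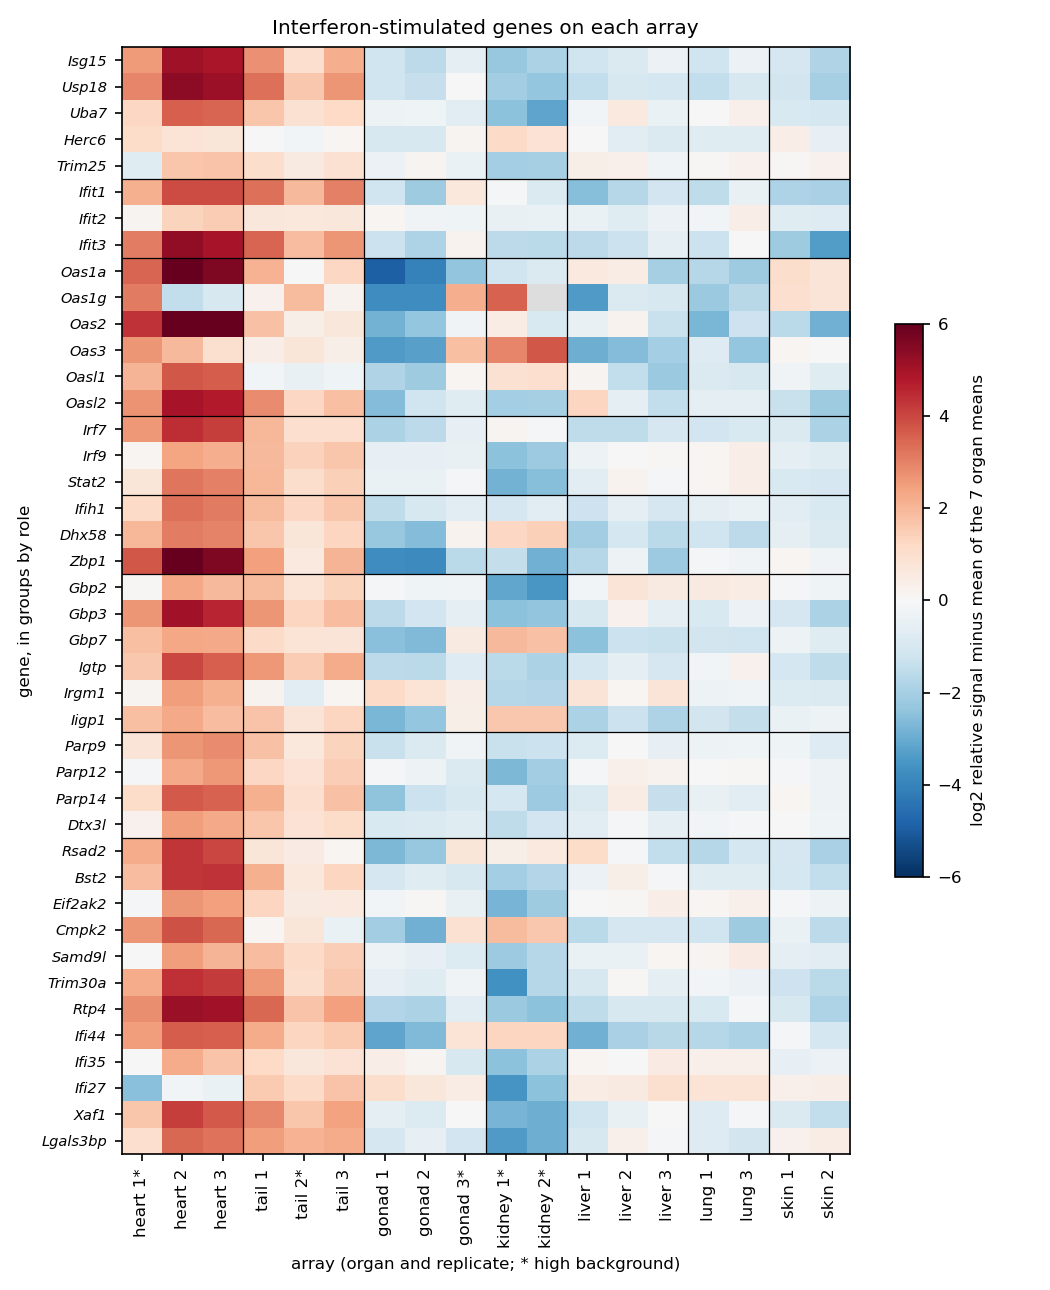
Colour map of the 42 genes (rows, grouped by role) on the 18 arrays (columns, by organ), as log2 relative signal minus the mean of the 7 organ means of that gene, with red above and blue below that mean. The median over the 42 genes was 1.82, 3.52 and 3.36 on heart arrays 1, 2 and 3 and 1.86, 0.90 and 1.35 on tail arrays 1, 2 and 3, and it lay between -1.75 and -0.24 on the 12 arrays of the other 5 organs. An asterisk marks a high-background array, and the grey cell is a spot left out as an outlier.

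The ISG15 conjugation system attaches a small ubiquitin-like protein to other proteins. Isg15, the modifier itself, had a relative signal of 65.0, 373 and 329 on heart arrays 1, 2 and 3, against 74.6, 22.2 and 49.3 on tail arrays 1, 2 and 3 and 2.29 to 8.69 (median 4.85) on the 12 arrays of the other 5 organs. All heart and tail arrays lay above the 12 others, and heart 1 lay within the tail range. The log2 difference between heart and the mean of the other 6 organs was 4.88 ± 0.50 (SE, limma, adjusted p = 7.2e-05). Usp18, the protease that removes ISG15 and also restrains the interferon receptor, had 5.28, 28.6 and 24.3 in heart, against 6.87, 2.14 and 4.38 in tail and 0.142 to 0.708 elsewhere (log2 difference for heart 5.20 ± 0.49, limma adjusted p = 3.9e-05). Uba7, the activating enzyme of the system, had 6.42, 33.0 and 30.2 in heart, against 8.51, 5.14 and 6.26 in tail and 0.303 to 4.15 elsewhere (3.23 ± 0.42, adjusted p = 0.00047). For both genes every heart and tail array lay above the 12 others.

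The ligases of that system did not pass. Herc6, the ISG15 ligase of mice, had 0.691, 0.570 and 0.541 in heart, against 0.326, 0.288 and 0.352 in tail and 0.168 to 0.722 elsewhere, where kidney 1 was highest (1.03 ± 0.29, limma adjusted p = 0.081). Its other probe gave a log2 difference of 1.87. Trim25, a ligase that acts on RIG-I and is itself induced by interferon, had 43.3 and 43.6 on heart arrays 2 and 3 but 8.23 on heart 1, against 28.3, 19.9 and 25.6 in tail and 3.34 to 17.3 elsewhere (1.03 ± 0.41, adjusted p = 0.32). Heart 1 and both kidney arrays, all with high background, held the 3 lowest values of Trim25. Without the 5 high-background arrays both ligase genes were called higher in heart, with log2 differences of 1.21 ± 0.25 for Herc6 (limma adjusted p = 0.012) and 1.41 ± 0.19 for Trim25 (adjusted p = 0.0014).

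The IFIT genes encode proteins that bind viral RNA and hinder its translation, and all 3 were higher in heart. Ifit3 had 11.8, 55.3 and 42.2 in heart, against 15.9, 5.01 and 8.70 in tail and 0.138 to 1.61 (median 0.514) on the 12 other arrays. Heart and tail overlapped through heart 1, and both lay above every other organ (5.18 ± 0.54 for heart, limma adjusted p = 7.7e-05). Ifit1 had 1.80, 6.31 and 6.26 in heart, against 4.01, 1.58 and 3.35 in tail and 0.0708 to 0.644 elsewhere (3.88 ± 0.55, adjusted p = 0.0009). Ifit2 differed least, with 0.569, 1.28 and 1.42 in heart, against 0.800, 0.766 and 0.802 in tail and 0.291 to 0.666 elsewhere, and heart 1 lay within the range of the 12 other arrays (1.18 ± 0.28, adjusted p = 0.027).

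The oligoadenylate synthetases make the messenger that activates RNase L, which degrades RNA, and they held both the largest and the smallest positive differences. Oas2 had 3.14, 16.6 and 13.6 in heart, against 0.519, 0.195 and 0.246 in tail and 0.0209 to 0.211 (median 0.0625) elsewhere. All 3 heart arrays lay above all 15 others. The probe was not well above background on either lung array, so the difference is given as a bound, at least 113-fold higher in heart than in the mean of the other organs (limma adjusted p = 3.7e-05). For such bounds the dim organ takes, on each array, the higher of the probe's own signal and the lowest signal well above background. An organ counts as dim where none of its arrays is well above background, and the other organs keep their own signal. Oas2 was well above background on 1 of 3 gonad and 1 of 2 skin arrays. The 113-fold is therefore a bound for lung and not for gonad or skin. Oas1a had 11.5, 66.3 and 49.5 in heart, against 4.31, 0.997 and 2.39 in tail and 0.0343 to 2.08 elsewhere, and again the groups did not overlap (5.89 ± 0.66, adjusted p = 0.00015). Its other probe gave 5.56. Oasl2 and Oasl1, related proteins, had log2 differences of 4.80 ± 0.59 and 3.66 ± 0.52 in heart (adjusted p = 0.0003 and 0.0009).

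Oas1g, whose ISRE letters are those of Oas1a in the sequences above, had 0.728, 0.0306 and 0.0430 in heart, against 0.0997, 0.312 and 0.0984 in tail and 0.00633 to 0.974 on the 11 other arrays with a value. The spot on kidney 2 was left out as an outlier, and the fit dropped it. The 4 highest values of Oas1g stood on heart 1, tail 2, gonad 3 and kidney 1, all of them high-background arrays, and hearts 2 and 3 were not well above background (limma adjusted p = 1 for heart against the other organs). Oas3 had 0.450, 0.272 and 0.141 in heart, against 0.0959, 0.120 and 0.0901 in tail and 0.00675 to 0.934 elsewhere, with kidney highest. It was not well above background on any liver array, and the bound was at least 3.97-fold with an adjusted p of 0.27 by limma. Without the high-background arrays Oas3 was called higher in heart (adjusted p = 0.0015). Whether probes of these close relatives each detect 1 gene was not tested.

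The 3 factors among the members that carry the signal to promoters, Irf7, Stat2 and Irf9, were all higher in heart. Irf7, a factor that amplifies interferon production and is itself induced, had 5.30, 19.2 and 15.9 in heart, against 3.48, 1.79 and 1.79 in tail and 0.237 to 0.983 (median 0.418) elsewhere. No heart array overlapped any other organ (4.35 ± 0.41, limma adjusted p = 3.9e-05). Stat2 had 5.24, 29.9 and 26.1 in heart, against 12.9, 6.72 and 8.61 in tail and 0.452 to 4.19 elsewhere (2.71 ± 0.42, adjusted p = 0.0018). Irf9, the DNA-binding partner of STAT2, had 4.60, 22.0 and 19.4 in heart, against 16.5, 11.2 and 13.5 in tail and 0.772 to 5.69 elsewhere (1.81 ± 0.37, adjusted p = 0.012). Heart 1 lay below every tail array for both genes, and for Irf9 also within the range of the 12 others.

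**Figure D2:**
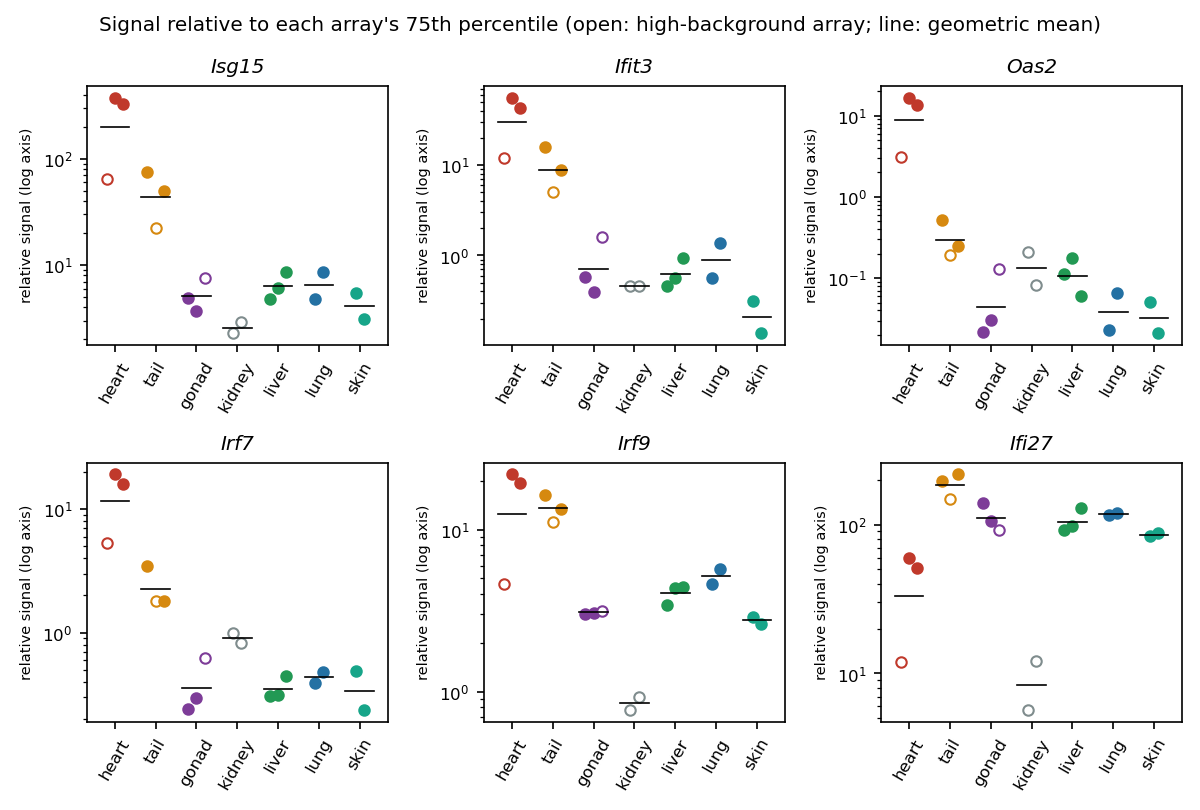
Relative signal on each array (points, log axis) by organ for Isg15, Ifit3, Oas2, Irf7, Irf9 and Ifi27, with open points for high-background arrays and a line at the geometric mean. Heart is highest for Oas2 and Irf7 on all 3 arrays, heart and tail overlap for Isg15, Ifit3 and Irf9, and Ifi27 is highest in tail.

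The nucleic acid sensors of the list were also higher in heart, 3 of 3. Zbp1, a sensor of left-handed nucleic acid that can start cell death, had 4.65, 24.0 and 17.4 in heart, against 1.95, 0.534 and 1.45 in tail and 0.0253 to 0.388 elsewhere. All heart arrays lay above all tail arrays, and these above all others (6.0 ± 0.61, limma adjusted p = 6.6e-05), while its other probe gave 4.26 on the log2 scale. Ifih1, which encodes the double-stranded RNA sensor MDA5, had 2.99, 13.5 and 11.9 in heart, against 5.11, 3.19 and 4.35 in tail and 0.474 to 1.03 elsewhere (2.94 ± 0.39, adjusted p = 0.00051). Dhx58, which encodes LGP2, a regulator of such sensors, had 2.02, 4.39 and 4.01 in heart, against 1.61, 0.862 and 1.26 in tail and 0.0861 to 1.39 elsewhere (3.12 ± 0.48, adjusted p = 0.0016).

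All 6 GTPase genes were higher in heart. These encode guanylate-binding proteins and immunity-related GTPases, which act on membranes around intracellular pathogens and respond to interferon gamma as well. Gbp3 had 5.10, 26.6 and 19.2 in heart, against 5.24, 2.04 and 2.95 in tail and 0.147 to 0.999 elsewhere, with heart 1 just below tail 1 (4.74 ± 0.46, limma adjusted p = 4.9e-05). Igtp had 4.21, 22.0 and 16.4 in heart, against 8.21, 3.85 and 6.32 in tail and 0.364 to 1.60 elsewhere (3.60 ± 0.42, adjusted p = 0.00017). Irgm1 had 8.30, 41.7 and 32.3 in heart, against 8.52, 4.67 and 7.90 in tail and 2.19 to 16.1 elsewhere (1.87 ± 0.40, adjusted p = 0.014). In tail, Irgm1 lay within the range of the 12 other arrays. The remaining 3 were Gbp7 at 2.51 ± 0.51, Iigp1 at 2.31 ± 0.48 and Gbp2 at 1.69 ± 0.39 (limma adjusted p = 0.012, 0.012 and 0.027).

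The 4 genes of the PARP group, ADP-ribosyltransferases and the ligase DTX3L that partners PARP9, were called in heart with smaller differences. Parp14 had 2.36, 14.0 and 13.1 in heart, against 4.88, 2.26 and 3.79 in tail and 0.208 to 1.51 elsewhere (3.23 ± 0.54, limma adjusted p = 0.0027). Parp9, Dtx3l and Parp12 had log2 differences of 2.44 ± 0.40, 1.95 ± 0.38 and 1.86 ± 0.44 (adjusted p = 0.0027, 0.0085 and 0.029). The second Dtx3l probe gave 0.94, under the threshold of size. For Parp12, heart 1 at 0.440 lay within the range of the 12 other arrays, 0.0731 to 0.584, and hearts 2 and 3 at 2.33 and 2.94 lay above it.

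Of the 12 other effectors, 11 were higher in heart. Rtp4, a receptor chaperone with antiviral activity, had 14.3, 73.5 and 66.6 in heart, against 21.8, 6.55 and 11.2 in tail and 0.370 to 1.87 elsewhere (5.07 ± 0.49, limma adjusted p = 4.9e-05). Bst2, the tetherin that holds budding virus at the membrane, had 29.3, 162 and 163 in heart, against 35.8, 12.7 and 20.0 in tail and 2.02 to 10.6 elsewhere (4.07 ± 0.45, adjusted p = 0.00013). Both genes separated heart and tail from the other organs without separating heart 1 from tail. Rsad2, which encodes viperin, an enzyme that makes a chain-terminating nucleotide, had 0.777, 3.24 and 2.67 in heart, against 0.269, 0.227 and 0.176 in tail and 0.0253 to 0.356 elsewhere (4.12 ± 0.66, adjusted p = 0.0023). Cmpk2, a nucleotide kinase, had 1.05, 2.38 and 1.82 in heart, against 0.182, 0.273 and 0.127 in tail and 0.0225 to 0.620 elsewhere (3.86 ± 0.60, adjusted p = 0.0017). On the gonad arrays Rsad2 was well above background on 1 of 3 and Cmpk2 on 2 of 3. In these 2 genes heart lay above every other array, and tail lay within the range of the remaining organs.

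Eif2ak2, which encodes PKR, the kinase that stops translation on double-stranded RNA, had 1.07, 7.01 and 6.28 in heart, against 2.76, 1.63 and 1.69 in tail and 0.164 to 1.5 elsewhere (1.96 ± 0.44, limma adjusted p = 0.022). Lgals3bp, a secreted glycoprotein, had 46.2, 248 and 222 in heart, against 131, 97.1 and 108 in tail and 2.20 to 31.6 elsewhere (3.01 ± 0.43, adjusted p = 0.00092). Hearts 2 and 3 lay above every other array for both genes. Trim30a, Ifi44, Xaf1, Samd9l and Ifi35 had log2 differences of 4.21, 3.78, 3.68, 1.78 and 1.54 (adjusted p = 0.00016, 0.0026, 0.00031, 0.021 and 0.047).

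Ifi27, a small membrane protein gene, went the other way. It had 11.9, 60 and 51.5 in heart, against 197, 149 and 218 in tail. On gonad, liver, lung and skin arrays it ranged between the levels of heart and tail, and kidney 1 and 2 had 5.70 and 12.1. The heart arrays lay below all tail arrays, and heart 1 lay between the kidney arrays. Heart was not called against the mean of the other organs (-1.18 ± 0.41, limma adjusted p = 0.20), and it was called lower without the 5 high-background arrays (-1.13 ± 0.16, adjusted p = 0.0022).

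**Figure D3:**
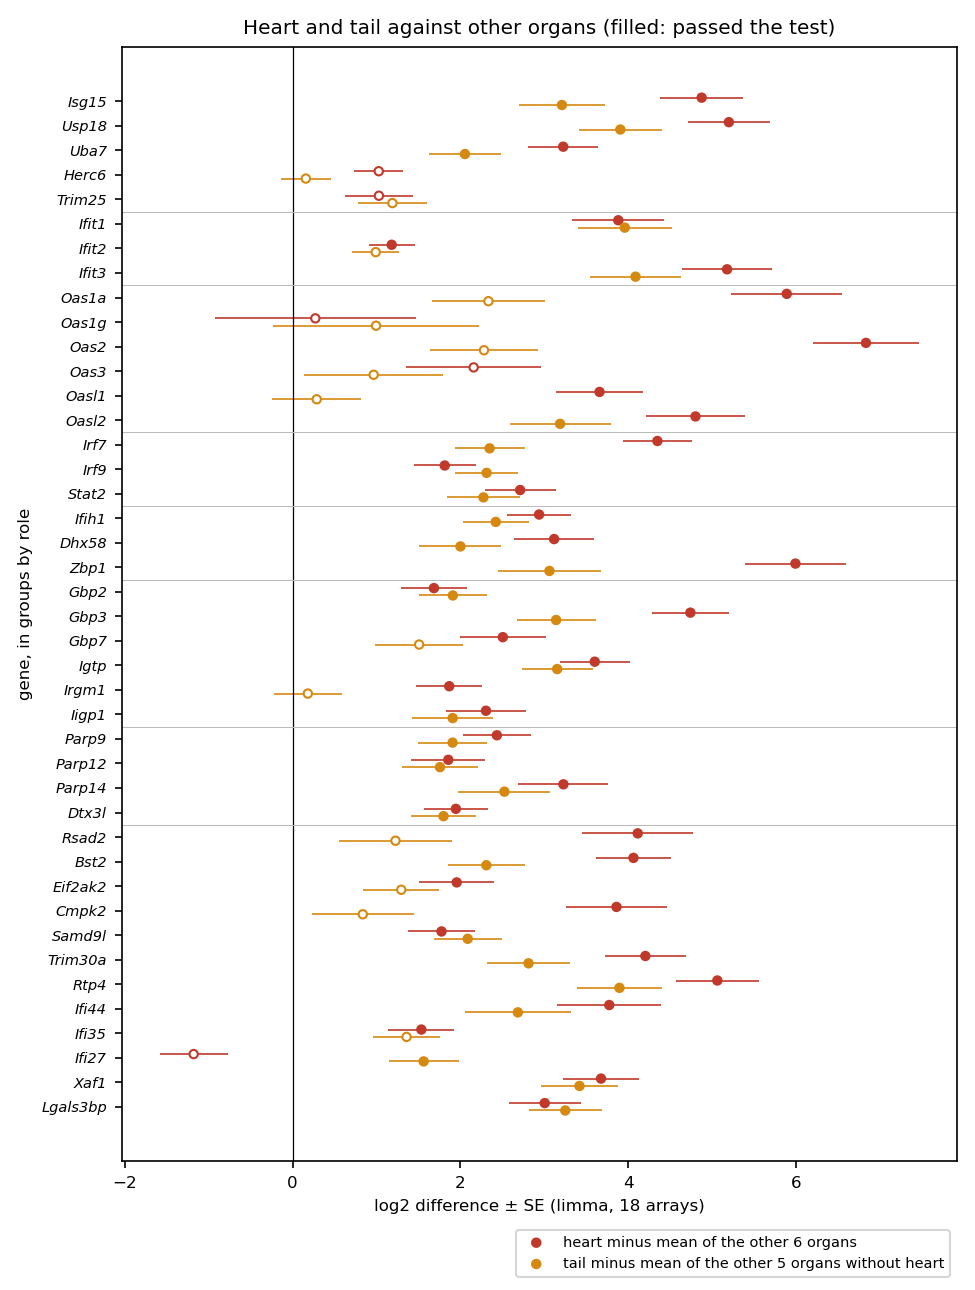
Log2 difference with its standard error for each of the 42 genes, for heart minus the mean of the other 6 organs (red) and for tail minus the mean of the other 5 organs without heart (orange), with filled points where the gene passed the test. The heart differences run from -1.18 (Ifi27) to a fitted 6.84 (Oas2) and the tail differences from 0.16 (Herc6) to 4.09 (Ifit3).

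Each heart array was also set against the other organs of its own slide. Heart 2 on slide 1 had 41 of 42 genes above the mean of the others with a median log2 difference of 3.97. Heart 1 on slide 2 had 34 of 42 with a median of 2.50, and heart 3 on slide 3 had 40 of 42 with 3.31. The share of all genes was not taken within slides. On slide 2 the 8 interferon genes not well above background on hearts 2 and 3 were also higher in heart 1. Their log2 differences there ran from 2.80 (Ifna7) to 3.87 (Ifnk). For dim genes a positive difference on slide 2 therefore cannot be told apart from high background. Heart 1, the high-background array, was the lowest of the 3 heart arrays for 39 of 42 genes. All 3 heart arrays lay above all 15 others for 10 of the 41 genes with complete values (0.322% of all genes). Hearts 2 and 3 alone did so for 38 of the 41 (4.51% of all genes), the exceptions being Herc6, Oas3 and Ifi27. Counts against single organs were 32 higher than gonad (1.32% of all genes), 33 higher than kidney (14.5%), 31 higher than liver (1.07%), 26 higher than lung (0.742%) and 27 higher than skin (0.995%). In each 0 were lower, where 2.87% of all genes were called lower against gonad, 2.43% against kidney, 2.63% against liver, 1.75% against lung and 1.68% against skin. Without the 5 high-background arrays 41 were higher than gonad (7.78% of all genes), 40 higher than liver (3.18%), 40 higher than lung (2.71%) and 38 higher than skin (4.45%). Ifi27 was then lower than in gonad (5.37%) and in lung (3.52%), and 0 were lower than in liver (4.3%) or skin (16.5%). Leaving out lung 1 took the count against lung to 9, and leaving out skin 2 took the count against skin to 12. Leaving out kidney 1 took the count against kidney to 20. The share of all genes called was not taken with these arrays left out.

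Tail fibroblasts came second. Set against the mean of gonad, kidney, liver, lung and skin, 28 of the 42 genes were higher in tail and 0 were lower, against 4.04% and 2.31% of all genes. The difference was positive for 42 of 42 genes, with a median of 2.18, against 0.33 over all genes. The largest were Ifit3 at 4.09 ± 0.55, Ifit1 at 3.96 ± 0.56, Usp18 at 3.91 ± 0.50 and Rtp4 at 3.90 ± 0.50 (limma adjusted p = 0.00039, 0.0006, 0.00027 and 0.0003). Xaf1 followed at 3.42 ± 0.46, Lgals3bp at 3.25 ± 0.44 and Isg15 at 3.21 ± 0.51 (adjusted p = 0.00042, 0.00039 and 0.0013). Among the factors, Irf7, Irf9 and Stat2 had 2.35, 2.31 and 2.28 (adjusted p = 0.0031, 0.0017 and 0.0051). Without tail 1 the count of higher genes was 13 (share of all genes not taken). Without the 5 high-background arrays it was 34, against 16.4% of all genes.

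The groups of genes differed in how many passed in tail. All 3 factors, all 3 sensors and all 4 genes of the PARP group were higher, as were 3 of 5 in the ISG15 system, 2 of 3 IFIT genes, 4 of 6 GTPases and 8 of 12 other effectors. Of the 6 oligoadenylate synthetase genes and their relatives 1 was higher, Oasl2 at 3.19 ± 0.60 (limma adjusted p = 0.0048). Oas1a missed the threshold at 2.34 ± 0.68, as did Oas2, for which lung gives only a bound (adjusted p = 0.058 and 0.051), and both were called without the high-background arrays (adjusted p = 0.0058 for Oas1a and 0.0035 for Oas2). Oasl1, Irgm1, Cmpk2 and Rsad2 had 0.29, 0.18, 0.84 and 1.23 (adjusted p = 0.85, 0.87, 0.64 and 0.44). All 3 tail arrays lay above the 12 arrays of those 5 organs for 28 of 41 genes (5.53% of all genes). Tail 1 was the highest of the tail arrays for 35 genes and tail 2, with high background, the lowest for 36. Within slides the tail array had median differences of 2.63, 2.04 and 2.18 on slides 1, 2 and 3, and the median over all genes was not taken there.

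Heart and tail were then compared directly. Of the 42 genes 6 were higher in heart and 1 was lower, against 1.46% and 3.28% of all genes. Those higher were Oas2 (4.93 ± 0.81, limma adjusted p = 0.0022), Oas1a (3.95 ± 0.85, adjusted p = 0.014), Zbp1 (3.44 ± 0.78, adjusted p = 0.019), Oasl1 (3.42 ± 0.67, adjusted p = 0.0074), Cmpk2 (3.16 ± 0.77, adjusted p = 0.028) and Irf7 (2.39 ± 0.53, adjusted p = 0.016). Of these, Oas2 and Oas1a are oligoadenylate synthetase genes, and Oasl1 encodes a related protein. Ifi27 was lower in heart than in tail (-2.48 ± 0.52, adjusted p = 0.012). Differences close to 0 were found for Irf9 (-0.11 ± 0.48), Samd9l (0.04 ± 0.51), Trim25 (0.04 ± 0.52) and Gbp2 (0.09 ± 0.51) (adjusted p = 0.95, 0.98, 0.98 and 0.96), which does not show that the levels were equal.

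The count in this comparison depended on heart 1. Without it 26 genes were higher in heart than in tail, against 5.07% of all genes, and without the 5 high-background arrays 25 were, against 5.52%. The 25 included Isg15 (2.53 ± 0.41, limma adjusted p = 0.0029), Usp18 (2.27 ± 0.34, adjusted p = 0.0023), Bst2 (2.60 ± 0.32, adjusted p = 0.00074) and Rsad2 (3.75 ± 0.71, adjusted p = 0.0061). Irf9 (0.47 ± 0.20), Gbp2 (0.52 ± 0.31), Ifit1 (0.78 ± 0.50) and Samd9l (0.60 ± 0.26) were not called in that fit either (adjusted p = 0.11, 0.25, 0.28 and 0.12). Without heart 2 the count was 2 (share of all genes not taken). All 3 heart arrays lay above all 3 tail arrays for 13 of 42 genes (4.06% of all genes), and hearts 2 and 3 did for 40 of 42 (23.3%).

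**Figure D4:**
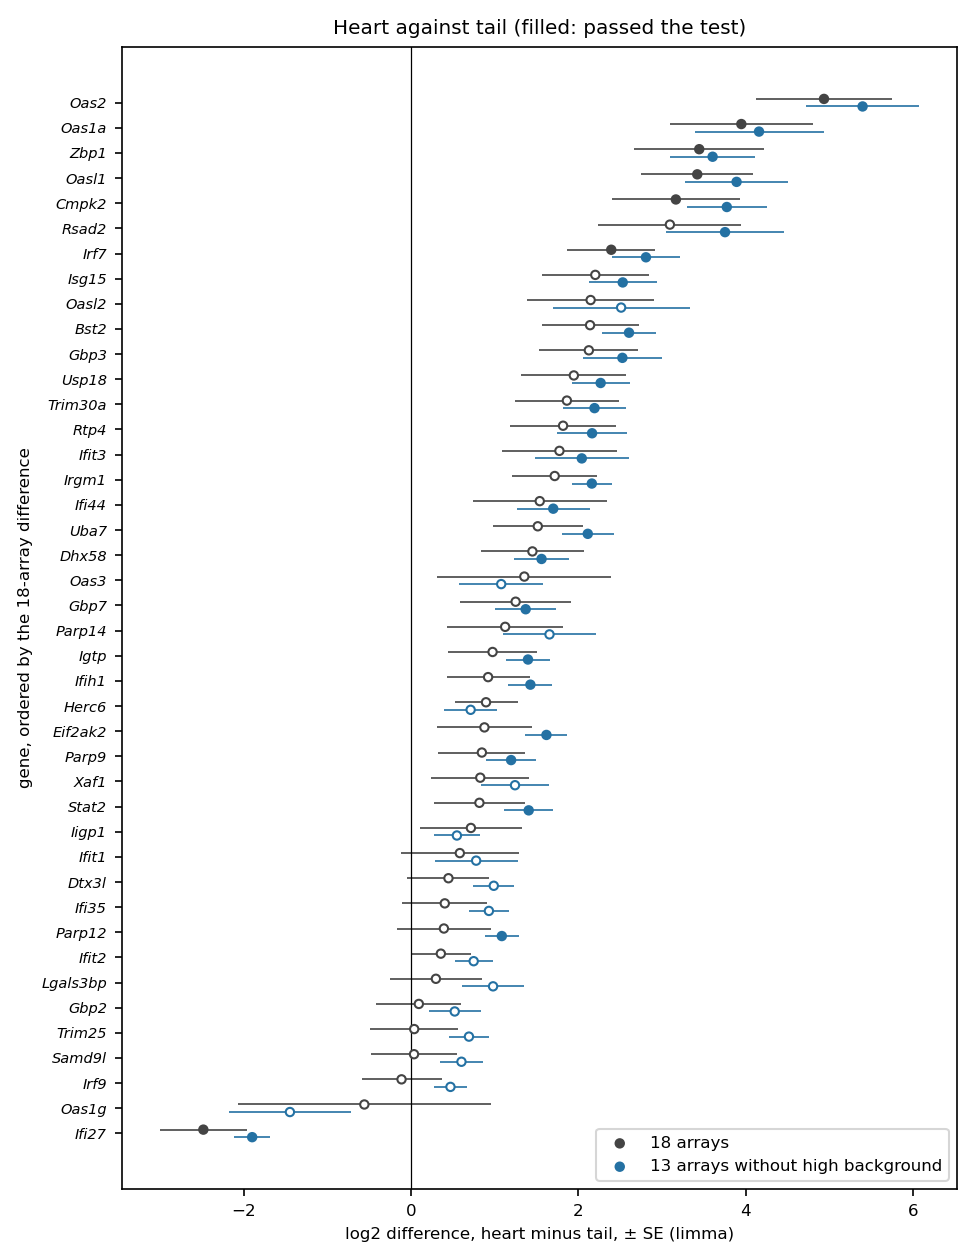
Log2 difference between heart and tail with its standard error for each of the 42 genes, over all 18 arrays (grey) and over the 13 arrays without high background (blue), with filled points where the gene passed the test. Over 18 arrays 6 genes pass above 0 and over 13 arrays 25 do, while Ifi27 lies below 0 in both.

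Among the other organs the genes differed less. Gonad had 2 genes lower than the mean of the other organs without heart, Oas1a (-3.51 ± 0.68, limma adjusted p = 0.012) and Zbp1 (-2.63 ± 0.62, adjusted p = 0.038), and 0 higher, against 0.822% of all genes called lower and 1.76% called higher. Oas1a had 0.0343, 0.0599 and 0.198 on the gonad arrays, all below the 3 tail arrays. Zbp1 had 0.0265, 0.0253 and 0.117 on gonad 1, 2 and 3. It was well above background on only 1 of these 3 arrays, so the size of its difference is uncertain. Without the 5 high-background arrays, when gonad has 2 arrays, 23 genes were lower and 1 was higher in gonad, against 18.9% and 3.88% of all genes. In liver, lung and skin limma called 0 of the 42 genes over 18 arrays, with 0.926%, 0.233% and 0.688% of all genes called higher and 0.545%, 0.144% and 0.728% called lower. At an unadjusted p under 0.05 there were 7 in liver (1 higher and 6 lower), 0 in lung and 3 in skin (1 higher and 2 lower). The share of all genes at that unadjusted threshold was not taken. Over 13 arrays skin had 14 lower and 3 higher, and the 3 higher were Oas1a, Oas1g and Oas3. For skin the background over 13 arrays was 4.18% lower and 20.7% higher. Kidney had 22 genes lower and 8 higher, but 42.2% and 35.2% of all genes were called there too.

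Other genes of the pathway were counted from lists, beside the same background for heart of 1.37% higher and 2.32% lower. That background is of adjusted calls. No share of all genes was taken for the unadjusted counts in these lists or in the marker lists below. Of 16 interferon genes with a probe 0 were called in heart by limma, and 1 (Ifnb1) had an unadjusted p under 0.05. Ifnb1, which encodes interferon beta, had 0.342, 0.302 and 0.0665 in heart, against 0.0429, 0.155 and 0.0727 in tail and 0.00649 to 0.346 elsewhere. Heart 3 lay below tail 3, and the highest single value was on kidney 1. The probe was not well above background on any liver or lung array, and heart was at least 3.71-fold above the mean of the other organs with a limma adjusted p of 0.17. Without the 5 high-background arrays Ifnb1 was called higher in heart by limma (adjusted p = 0.0098), again with liver and lung not above background. Of the 16, 8 were not well above background on either heart 2 or heart 3, among them Ifng, which encodes interferon gamma. None of the 6 receptor genes was called by limma (2 were lower at an unadjusted p under 0.05), and 1, Ifngr2, was lower over 13 arrays. With the 5 high-background arrays included, Ifnar1 was at -0.75 ± 0.32 and Ifnar2 at 0.14 ± 0.39 (limma adjusted p = 0.42 and 1). Against the other organs of its own slide, heart 1 had log2 differences of -2.06 for Ifnar1 and -1.76 for Ifnar2. Hearts 2 and 3 had -0.18 and -0.08 for Ifnar1 and 0.82 and 1.24 for Ifnar2.

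Irf3, the factor that starts interferon beta transcription, was not called (-0.38 ± 0.42, limma adjusted p = 1). Of 20 nucleic acid sensing genes 4 were higher in heart: Tlr3 (at least 3.57-fold, since 3 organs were dim), Adar (2.21 ± 0.34), Ddx58, which encodes RIG-I (2.08 ± 0.38), and Ifi204 (1.58 ± 0.39), with limma adjusted p = 0.015, 0.0016, 0.0056 and 0.035. Of 9 feedback inhibitors 1 was, Trim21 (1.96 ± 0.41, adjusted p = 0.012). Over the 13 arrays 4 sensing genes and 1 feedback inhibitor were again higher and 0 lower.

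MHC class I genes, which serve antigen presentation, had 6 of 10 higher in heart (1.37% of all genes) and, in tail, also 6 of 10 (4.04%). The leading ones in heart were Nlrc5, the transactivator of class I genes (3.13 ± 0.62), the immunoproteasome subunits Psmb8 (2.64 ± 0.41) and Psmb9 (2.55 ± 0.35), and the peptide transporter Tap1 (2.29 ± 0.37), with limma adjusted p = 0.0093, 0.0016, 0.00067 and 0.0025. Psmb9 had 1.5, 4.90 and 4.16 in heart, against 3.04, 1.82 and 2.40 in tail and 0.193 to 0.594 elsewhere, so both organs lay above all others. Over 13 arrays 10 of 10 were higher in heart. Of 12 interferon gamma targets outside the member list 6 were higher in heart, or 7 over 13 arrays, and 1 in tail. Tgtp2, an immunity-related GTPase, had 4.31, 23.3 and 16.1 in heart, against 1.32, 0.448 and 0.889 in tail and 0.278 to 2.55 elsewhere, and its 3 heart arrays lay above all 15 others (3.57 ± 0.43, adjusted p = 0.00027). Gbp5 (3.91 ± 0.74), Irgm2 (3.55 ± 0.44) and the chemokine gene Cxcl10 (3.13 ± 0.58) were higher too (adjusted p = 0.0068, 0.00031 and 0.006). Of 13 NF-kB targets, which inflammation drives by another route, 0 were called in heart by limma over 18 arrays. At an unadjusted p under 0.05 there were 4 (3 higher and 1 lower), and 1, Il6, was called higher over 13 arrays.

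**Figure D5:**
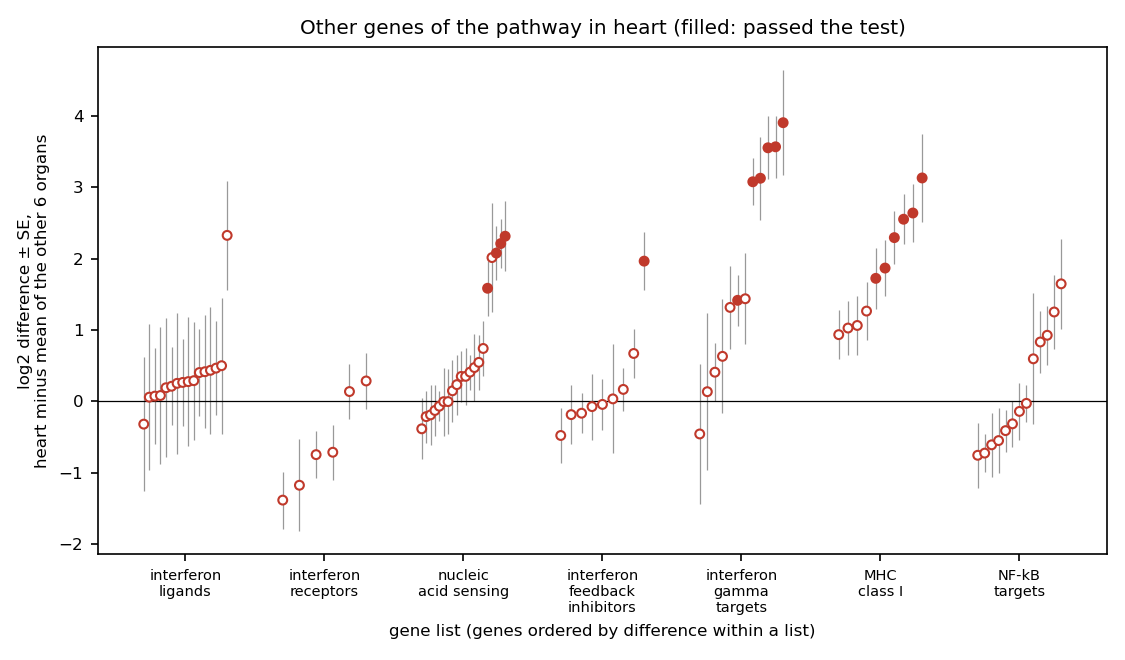
Log2 difference between heart and the mean of the other 6 organs with its standard error, for other genes of the pathway by list, with filled points where the gene passed the test. None of the interferon, receptor or NF-kB target genes pass over these 18 arrays, and 6 of 10 MHC class I genes and 6 of 12 interferon gamma targets do.

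Markers of other cell types that heart cultures could hold were read beside these results. Each of the 13 fibroblast markers was well above background on heart 2, heart 3 or both. Of them 1, Lum, was higher in heart (4.28 ± 0.68, limma adjusted p = 0.0019). Over 13 arrays 3 were higher, Lum, Dcn and Pdgfra. Of 13 macrophage markers 0 were higher and 1, Cd14, was lower (-1.68 ± 0.39, adjusted p = 0.026), their summed relative signal was 12.7 to 37.0 in heart, against 20.5 to 25.5 in tail and 12.3 to 74.4 elsewhere, and Adgre1, Fcgr1, Mrc1 and Cd163 were not above background on hearts 2 and 3. Over 13 arrays 1 macrophage marker was higher in heart, Mertk, and 1 lower, Cd14. Plasmacytoid dendritic cells are known for high interferon output, and 0 of their 9 markers were called in heart by limma (1, lower, at an unadjusted p under 0.05), and over 13 arrays Bcl11a and Cox6a2 were lower. The sum of those 9 was 20.0 to 133 in heart, against 78.5 to 99.0 in tail and 24.8 to 122 elsewhere. Ccr9, Bcl11a, Klk1 and Spib were not above background on hearts 2 and 3. The brightest probes weigh most in any such sum, so it does not measure the number of cells of a type. For lymphocytes 0 of 10 were called, also at an unadjusted p under 0.05 or over 13 arrays, with sums of 2.32 to 6.97 in heart, against 2.87 to 4.05 in tail and 1.78 to 7.30 elsewhere, and Cd8a, Cd79a, Ms4a1, Klrb1c and Gzmb were not above background on hearts 2 and 3. Of 9 endothelial markers Tek was higher in heart (1.87 ± 0.45, adjusted p = 0.032) and Cdh5 and Emcn were lower (-2.54 ± 0.56 and -3.28 ± 0.67, adjusted p = 0.018 and 0.011). Cdh5 was well above background on 2 of 3 heart arrays and Emcn on 1 of 3. The 9 summed to 4.8 to 5.73 in heart, against 4.73 to 6.97 in tail and 4.27 to 51 elsewhere. Over 13 arrays Esam was lower as well. Of 9 cardiomyocyte markers 0 were called (1, lower, at an unadjusted p under 0.05), nor over 13 arrays, with sums of 4.84 to 10.5 in heart, against 1.67 to 3.7 in tail and 1.47 to 35.2 elsewhere. The part of other cell types in the heart signal of the interferon-stimulated genes was not tested.

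The genes were also split by their promoter letters. The 17 members with an ISRE in the window had a median log2 difference in heart of 3.60 with a range of 0.27 to 5.89, and the 16 without had a median of 2.48 with a range of 1.03 to 4.80. Both ranges overlap over most of their length, and the split was not tested. Irf7, with no match in its window, had a log2 difference of 4.35.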

How the data were processed

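RNA of each culture was hybridised to a 1-colour mouse array, and per the file headers the authors read the arrays with Agilent Feature Extraction 11.0.1.1. The values used are the deposited processed intensity of each spot, which the authors' software background-subtracted and did not normalize between arrays. The deposited flags, of another unit (0 or 1), mark spots well above background, saturated or outlying. The deposited value table holds raw median intensity and was used as an alternative. It is the one source of lung 2.

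Outlier-marked spots (4493 values) were set to missing, and log2 intensity less the array's 75th percentile was taken. Probes were joined to RefSeq genes by accession (27235 of 55681 probes). The brightest probe of each gene was kept if well above background on at least 2 arrays, which left 20205 genes. The 7 organ means were fitted on 18 arrays by limma (version 3.58.1, under R 4.3.3) with 11 residual degrees of freedom, and the script was tested on simulated data. Figures were drawn by matplotlib 3.10.9 and tables made by pandas 2.3.3 and numpy 2.4.6, under Python 3.11.15. The members, lists and tests were chosen with earlier results of these data known. Of other pathway genes, up to 4 called members of each list with the largest change in heart are named, plus Ifnb1, Ifnar1, Ifnar2, Irf3 and Ddx58, and of the list of signal transducers Irf3 alone is reported here. Named after their values were seen were Il6, the dim markers and the genes called only over 13 arrays. Alternatives covered scaling, background correction, filters, probes, variance model, slide, replicate number, array background and each array left out. Deviations of same-numbered arrays had a median r of -0.038 over 46 pairs (range -0.85 to 0.781). Arrays with different numbers had 0.017 over 92 pairs (range -0.843 to 0.905). With such a spread the check cannot exclude pairs. Replicate numbers were not taken as pairs in the main fit. The promoter windows are RefSeq GRCm38.p6.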

Additional observations from a re-analysis of the deposited data

How the results depend on the processing

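Over the counts and single genes of the heart, tail and heart against tail comparisons, 0 called values changed sign under the alternatives tried. The count of members higher in heart than in the other 6 organs was 37 and lay between 26 (without heart 2) and 39 (without gonad 3) when each array was left out. It was 35 with the slide as a block and 33 with a replicate block. With the array floor (the lowest signal well above background) as a covariate, 10 of the 37 were no longer called and the status of the other 32 members was unchanged. The replicate block gave 25 members higher in tail, 5 higher in heart than in tail and 29 over the organs other than heart, against 28, 6 and 38 (where 40.5% of all genes were called) without it, and 1 in gonad against 2. Counts that moved by over 1.5 times follow, and the cause was not tested. In some of these settings fewer arrays entered.

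Members higher in heart than in tail were 6 (1.46% of all genes), against 23 with quantile normalization (2.88%) and 15 with median scaling. The count was 26 with normexp, 12 with the value table and 10 with an intensity trend. It was 25 without the 5 high-background arrays (5.52%) and 27 without them after normexp (an alternative chosen after seeing the data). Where no share of all genes is given for a setting, a change in calls over all genes cannot be told apart from one in the members. Against liver 31 became 17 with the array floor as a covariate, and against lung 26 became 40 without the high-background arrays. For gonad the count of 2 became 6 with quantile normalization, 24 without the high-background arrays, 10 without them after normexp, and 1 with normexp, the value table, the mean of a gene's probes, the every-array filter or the floor covariate. Liver had 0, against 3 with quantile normalization and 4 without the high-background arrays, and lung had 0, against 1 under those settings and 1 without the arrays after normexp. Skin had 0, against 3 with quantile normalization, 1 with median scaling, 2 with normexp, 1 with the every-array filter, 1 with an intensity trend, 17 without the high-background arrays and 15 without them after normexp.

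Leaving out each array in turn gave 2 to 26 members higher in heart than in tail, 9 to 38 than in lung, 12 to 36 than in skin, 20 to 37 than in kidney, 24 to 38 than in liver and 28 to 39 than in gonad. Called members ranged from 13 to 33 in tail, 0 to 10 in gonad, 8 to 34 in kidney, 0 to 4 in liver, 0 to 0 in lung and 0 to 1 in skin, and 20 to 41 over the organs other than heart. Dim probes limit Oas1g, Oas2, Oas3, Zbp1 in gonad and the interferon genes, and kidney has no array without high background.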

Other observations

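Lung replicate 2 entered no test of the processed intensities. In the value table, scaled to the 75th percentile of each array on the log2 scale, Isg15 was at 3.99 on lung 2, against 2.21 on lung 1 and 2.98 on lung 3. Usp18 was at -0.25 on lung 2, against -1.80 on lung 1 and -1.39 on lung 3.

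Over the 13 arrays without high background, 4 of the 42 genes were lower in liver than in the other organs without heart: Ifit1 (-1.44 ± 0.34), Ifi44 (-1.32 ± 0.30), Iigp1 (-1.02 ± 0.19) and Oas3, with limma adjusted p = 0.035, 0.031, 0.015 and 0.04. No size is given for Oas3, which was not well above background on any liver array. All genes called lower in liver in that fit came to 4.03%. In gonad, Irgm1 was the 1 gene higher (1.08 ± 0.19, limma adjusted p = 0.0038), and in skin Ifit3 was lower (-2.66 ± 0.44, adjusted p = 0.0029). These comparisons share organs, and differences between them were not tested.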
